A study of Mus musculus with 10 samples.

Results

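Amino acids cross membranes through dedicated carrier proteins. The genes described here encode a set of such carriers, most of them of the plasma membrane or the lysosome, outside the Slc38 family. The set was chosen by gene symbol, 34 genes in all, and every one of them was present among the 24475 genes of the expression table. Levels were measured by RNA sequencing in islets, the endocrine tissue of the pancreas, from C57BL/6 mice. The animals behind 5 libraries had received the antibody REGN1193, which blocks GCGR, the receptor for glucagon, called antibody libraries 1 to 5, and those behind the other 5 an isotype control antibody, called isotype libraries 6 to 10. The labels give no dose, duration, age, sex or batch, and leave unsaid whether the libraries stem from separate animals, so p-values refer to the spread among the libraries, which may be technical.

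Carriers of the SLC1 and SLC6 families bring amino acids into cells with the sodium gradient. Carriers of the SLC7 family are either uniporters of cationic amino acids or light chains, which reach the membrane only when bound to a glycoprotein heavy chain encoded by Slc3a1 or Slc3a2. SLC36, SLC43 and SLC16 members move amino acids with protons or down their gradient. In islets amino acids stimulate both insulin and glucagon secretion, and when glucagon action on the liver is blocked the amino acid level in blood is known to increase and alpha cells to multiply. Whether the islet genes for amino acid uptake differ under the antibody is therefore a question that the design addresses.

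The tissue label held in the marker genes. Ins2, an insulin gene, lay between 143596 and 238545 RPKM in antibody libraries and between 185966 and 340231 RPKM in isotype libraries. RPKM are reads scaled by transcript length and library size. Gcg, which encodes proglucagon, lay between 50503 and 76928 RPKM in antibody libraries and between 9513 and 17038 RPKM in isotype libraries. Exocrine cells were also represented, since the 18 acinar enzyme and identity genes together summed to 3753 to 12458 RPKM in antibody libraries and 2968 to 16784 RPKM in isotype libraries. The depth estimated from the steps of the low values ran from 12.3 to 18.0 megareads, so that 0.5 RPKM in 2 kb of transcript corresponds to as many single reads. In whole islets, fewer cells of a type and less RNA per cell cannot be told apart.

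None of the transporter genes passed the test between the groups. Of the 34 genes, 23 averaged 0.5 RPKM or more across all 10 libraries and were tested with limma, and 0 of the 23 had an adjusted p below 0.05, against 0.409% of the 13450 genes tested (0.394% higher and 0.0149% lower with the antibody). Without adjustment 3 of the 23 had a limma p below 0.05, all with negative log2 fold changes (Slc1a4, Slc6a9 and Slc6a17), where 4.18% of all tested genes were so placed in that direction and 2.84% in the other. That balance depended on the scaling, since median centring gave 2.24% lower and 4.34% higher, quantiles gave 2.84% lower and 3.60% higher, and trimmed means gave 2.83% lower and 3.72% higher. The exact permutation test gave 2 of the 23, Slc1a4 and Slc6a9, a p below 0.05, as it did 7.14% of all tested genes. In 0 of the 23 were the groups free of overlap, against 1.99% of all tested genes. On GRCm38.p6 RefSeq places these genes at chr11:20302180-20332713 (Slc1a4), chr4:117835258-117869305 (Slc6a9) and chr3:107467548-107518018 (Slc6a17). Log2 fold changes are given on the scale of log2(RPKM + 0.5), antibody over isotype, and understate the change of genes near 0.5 RPKM. They were negative in 18 of 23 and positive in 5, with a median of -0.13. Of all tested genes 66.5% had a negative log2 fold change, with a median of -0.07. This too depended on the scaling. With median centring the median of all genes was 0.01, and 15 of the 23 transporters were negative with a median of -0.05. With quantile normalization the median of all genes was -0.009, and 16 of the 23 were negative with a median of -0.06. The 95% interval of the difference lay within a 2-fold change in both directions for 18 of the 23 genes and within a 1.5-fold change for 10.

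**Figure D1:**
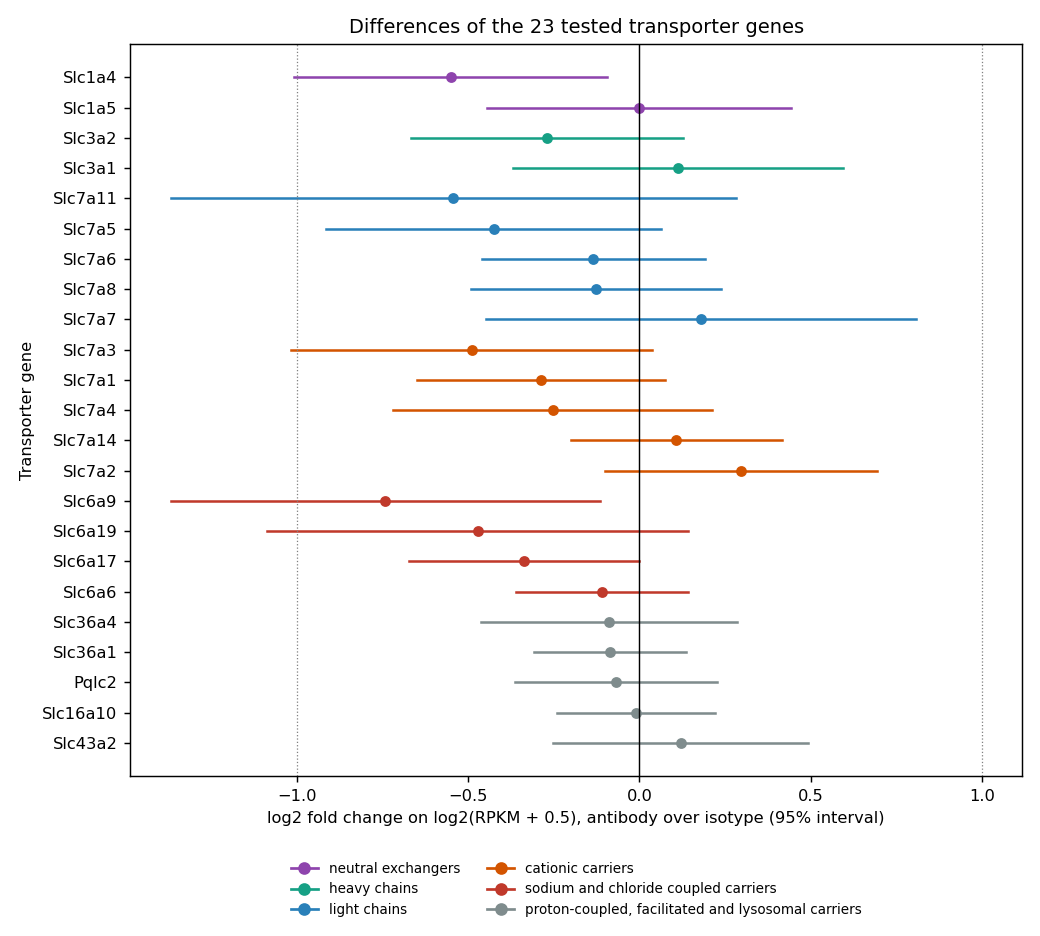
Log2 fold change of each of the 23 tested transporter genes on log2(RPKM + 0.5), antibody over isotype (5 libraries each), with limma's 95% interval as a line and colours for the role of the carrier. Dotted lines mark a 2-fold change; the intervals of Slc1a4, Slc6a9 and Slc6a17 lie below 0, and the other 20 include it.

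Levels of the carriers spanned several orders of magnitude. The mean over 10 libraries was above 50 RPKM in 5 genes, between 20 and 50 RPKM in 3, between 5 and 20 RPKM in 7, between 0.5 and 5 RPKM in 8, and below 0.5 RPKM in 11. The 6 genes with the highest means were the heavy chain Slc3a2 and the carriers Slc7a14, Slc7a2, Slc6a6, Slc16a10 and Slc7a8. They made up 72.8% ± 2.35 of the summed RPKM of the 34 genes in antibody libraries and 70.0% ± 0.935 in isotype libraries (SD over 5 libraries in each group). The sum over the 34 genes was 506 ± 19.99 RPKM under the antibody and 540 ± 51.3 RPKM under the isotype control (SD over 5 libraries in each group), and the ranges of the groups overlapped.

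**Figure D2:**
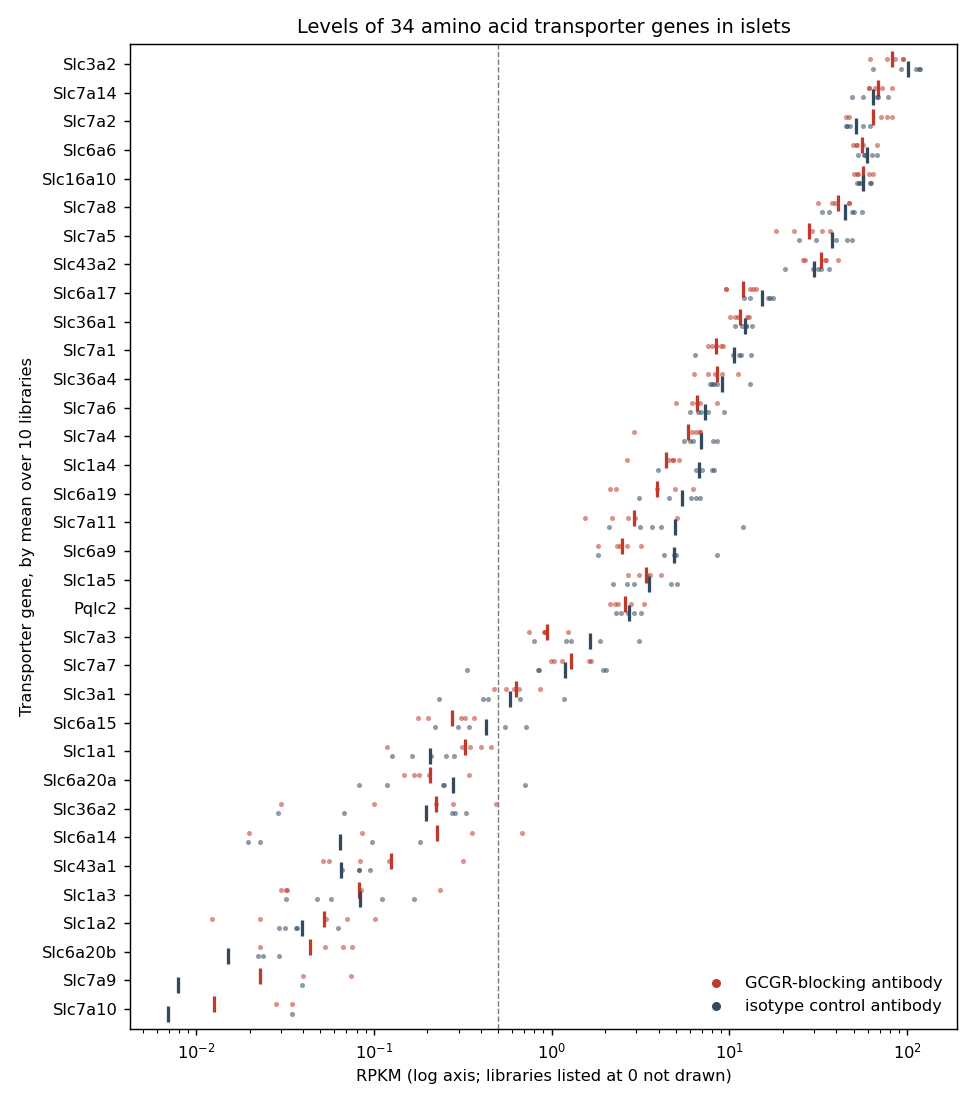
RPKM (log axis) of the 34 transporter genes in each of 5 antibody libraries (red) and 5 isotype libraries (dark blue), with vertical ticks for the group means and a dashed line at 0.5 RPKM, the minimum mean for testing; libraries listed at 0 are not drawn. The order runs from Slc3a2 at the top to Slc7a10 at the bottom. The groups overlap in every gene, though in Slc7a9 only through libraries at 0.

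Slc1a4 and Slc1a5 encode the sodium-dependent neutral amino acid exchangers ASCT1, which carries alanine, serine and cysteine, and ASCT2, which carries glutamine. Slc1a4 stood at 4.80, 4.58, 4.79, 5.202 and 2.64 RPKM in antibody libraries 1 to 5, against 3.95, 6.98, 6.49, 7.999 and 8.21 RPKM in isotype libraries 6 to 10. All antibody libraries but the fifth lay within a narrow band, and isotype library 6 was the only isotype library inside the antibody range. The mean was 4.40 ± 1.01 RPKM under the antibody and 6.73 ± 1.71 RPKM under the isotype control (SD over 5 libraries in each group). The difference, a log2 fold change of -0.55 (SE 0.21, 95% interval -1.01 to -0.09), had the smallest limma p among the transporters, with an adjusted p of 0.597 and an exact permutation p of 0.0397. Without isotype library 6 the log2 fold change was -0.72 (limma adjusted p = 0.152). It was -0.40 without antibody library 5 (limma adjusted p = 0.626) and -0.47 without isotype library 10 (limma adjusted p = 0.882). Slc1a5 averaged 3.38 ± 0.530 RPKM under the antibody and 3.52 ± 1.29 RPKM under the isotype control (SD over 5 libraries in each group), a log2 fold change with a 95% interval of -0.45 to 0.44 (limma adjusted p = 0.999).

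Slc3a2 encodes the heavy chain 4F2hc (CD98), which carries most SLC7 light chains to the plasma membrane, and it had the highest level of all 34 genes. Its values were 77.4, 94.4, 94.1, 85.1 and 61.6 RPKM in antibody libraries 1 to 5, against 64.5, 116, 113, 118 and 92.9 RPKM in isotype libraries 6 to 10. Every antibody library lay below the isotype median of 113 RPKM, but isotype libraries 6 and 10 fell inside the antibody range. The means were 82.5 ± 13.6 and 101 ± 22.6 RPKM in antibody and isotype libraries (SD over 5 libraries in each group; log2 fold change -0.27, standard error 0.18, limma adjusted p = 0.837). Its log2 fold change was -0.42 without isotype library 6 (limma adjusted p = 0.393) and -0.17 without antibody library 5 (limma adjusted p = 0.856). The other heavy chain, Slc3a1 (rBAT), which pairs with Slc7a9 in kidney cystine uptake, was close to the minimum for testing. It stood at 0.615, 0.557, 0.655, 0.474 and 0.860 RPKM in antibody libraries, against 0.410, 0.665, 0.439, 0.233 and 1.18 RPKM in isotype libraries. The isotype values surrounded the antibody values on both sides (log2 fold change 0.11, standard error 0.22, limma adjusted p = 0.951). Its partner Slc7a9 was listed at 0 in 7 of 10 libraries.

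Among the light chains that bind Slc3a2, those of the large neutral amino acid exchangers LAT1 (Slc7a5) and LAT2 (Slc7a8) led. Slc7a8 stood at 31.5, 47.2, 47.4, 39.5 and 37.9 RPKM in antibody libraries 1 to 5, against 33.1, 55.8, 48.9, 50.2 and 36.4 RPKM in isotype libraries 6 to 10. Slc7a5, which takes up leucine and other large neutral amino acids, stood at 23.1, 29.0, 33.0, 36.9 and 18.3 RPKM in antibody libraries, against 24.6, 45.9, 39.7, 49.0 and 30.5 RPKM in isotype libraries. For both genes all 5 antibody libraries lay below the isotype median, while isotype library 6 was the lowest of its group. The log2 fold change was -0.13 for Slc7a8 (standard error 0.17, limma adjusted p = 0.914) and -0.43 for Slc7a5 (standard error 0.22, limma adjusted p = 0.766). That of Slc7a8 was -0.23 without isotype library 6 and -0.04 without antibody library 1.

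Slc7a8 exceeded Slc7a5 in every library, by a ratio of 1.07 to 2.07 in antibody libraries and 1.02 to 1.35 in isotype libraries. Summed, the 6 light chain genes Slc7a5, Slc7a6, Slc7a7, Slc7a8, Slc7a10 and Slc7a11 came close to the RPKM of Slc3a2 itself. The ratio of that sum to Slc3a2 was 0.972 ± 0.0920 in antibody libraries and 0.962 ± 0.0455 in isotype libraries (SD over 5 libraries in each group). It ranged over 0.867 to 1.11 with the antibody and 0.901 to 1.02 under the isotype control. Both are transcript levels per length and say nothing of protein amounts.

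Of the remaining light chains, Slc7a6 and Slc7a7 encode the exchangers of cationic for neutral amino acids y+LAT2 and y+LAT1, and Slc7a11 encodes xCT, which imports cystine in exchange for glutamate. Slc7a11 stood at 2.95, 2.69, 2.19, 1.54 and 5.09 RPKM in antibody libraries, against 2.09, 3.65, 4.11, 3.13 and 11.9 RPKM in isotype libraries. Isotype library 10 was more than 2 times as high as every other library, and antibody library 5 was the highest of its own group. The log2 fold change was -0.54 (standard error 0.38, limma adjusted p = 0.845) and -0.19 without isotype library 10 (limma adjusted p = 0.973). Slc7a7, known from macrophages as well as from epithelia, stood at 1.03, 1.63, 1.66, 0.995 and 1.14 RPKM in antibody libraries, against 0.333, 0.834, 2.02, 0.851 and 1.93 RPKM in isotype libraries (log2 fold change 0.18, standard error 0.29, limma adjusted p = 0.936). The 11 macrophage genes found averaged 1.66 to 4.16 on the log2(RPKM + 0.5) scale in antibody libraries and 2.13 to 4.07 in isotype libraries. Both the list and Slc7a7 had their isotype maximum in library 8 and their isotype minimum in library 6, and the part of macrophages in the Slc7a7 values was not tested. Slc7a6 averaged 6.61 ± 1.28 RPKM under the antibody and 7.29 ± 1.25 RPKM under the isotype control (SD over 5 libraries in each group). Slc7a10, the light chain of the small neutral amino acid exchanger Asc-1, was listed at 0 in 7 of 10 libraries. The names Slc7a11, Slc7a7, Slc7a6 and the other genes given below by their means were chosen after their values were seen.

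Several of these carriers are known targets of ATF4, a transcription factor that is made when amino acids run short and binds the C/EBP-ATF response element together with a C/EBP partner. Promoter windows of 250 bases before to 50 bases after a RefSeq start (GRCm38.p6) were matched for 26 of the 34 genes and searched for TGATGNAA, the core of that element, and its reverse complement TTNCATCA. A match was found in 3 genes, Slc7a11, Slc1a4 and Slc7a7, and in 4.51% of all 27025 genes with a window. The windows of Slc7a11 (chr3:50443564-50443863, minus strand) and Slc1a4 (chr11:20332664-20332963, minus strand) are shown because, as was seen in their values, both genes had negative log2 fold changes and reached their highest level in the same library, isotype library 10. They are read 5′ to 3′ along the gene, with the matches in capitals.
Slc7a11: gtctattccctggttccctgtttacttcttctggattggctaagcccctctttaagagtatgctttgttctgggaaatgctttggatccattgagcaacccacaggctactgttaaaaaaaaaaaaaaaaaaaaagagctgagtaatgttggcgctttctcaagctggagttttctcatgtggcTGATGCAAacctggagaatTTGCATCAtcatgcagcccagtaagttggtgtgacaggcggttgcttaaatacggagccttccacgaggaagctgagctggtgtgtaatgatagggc
Slc1a4: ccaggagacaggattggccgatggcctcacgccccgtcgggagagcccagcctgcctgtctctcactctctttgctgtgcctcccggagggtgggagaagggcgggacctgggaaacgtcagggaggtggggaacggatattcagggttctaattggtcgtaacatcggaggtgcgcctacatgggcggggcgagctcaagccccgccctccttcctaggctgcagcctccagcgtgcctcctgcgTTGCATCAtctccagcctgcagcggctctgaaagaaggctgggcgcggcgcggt
Slc7a11 held 2 matches, in opposite orientations, beginning 66 and 47 bases upstream of the start, and Slc1a4 held 1, beginning 4 bases upstream. In Slc7a7, which is annotated with several starts, the matches were TGATGAAA and TGATGCAA. Slc7a7 had a positive log2 fold change (0.18) and its highest level in isotype library 8. Of the 23 tested transporters 18 had negative log2 fold changes and 11 were highest in isotype library 10. Neither trait is therefore particular to genes with a match. A match is a description of the letters and not a measured binding site, and windows without one say nothing of the factor.

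The uniporters of arginine, lysine and ornithine are encoded by Slc7a1 (CAT1), Slc7a2 (CAT2) and Slc7a3 (CAT3), while Slc7a4 and the lysosomal Slc7a14 are related genes whose transport is less settled. Slc7a2 is known as an arginine carrier of alpha cells. It stood at 76.6, 45.3, 47.3, 71.5 and 81.6 RPKM in antibody libraries 1 to 5, against 61.5, 47.4, 45.2, 45.8 and 56.6 RPKM in isotype libraries 6 to 10. Antibody libraries 1, 4 and 5 lay above every isotype library, whereas antibody libraries 2 and 3 were among the isotype values. The mean was 64.5 ± 17.0 RPKM under the antibody and 51.3 ± 7.33 RPKM under the isotype control (SD over 5 libraries in each group). The log2 fold change was 0.30 (SE 0.18, 95% interval -0.10 to 0.69, limma adjusted p = 0.808, exact permutation p = 0.183), the largest positive one among the 23 tested transporters. The mean level of the 8 alpha cell genes, on the log2(RPKM + 0.5) scale, was 5.95, 6.43, 6.32, 6.08 and 6.02 in antibody libraries 1 to 5 and lay between 4.31 and 5.13 in isotype libraries. The part of alpha cell content in the Slc7a2 values was not tested.

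Slc7a1, the most widely expressed of these uniporters across tissues, stood at 8.91, 8.36, 9.22, 7.94 and 7.55 RPKM in antibody libraries, against 6.40, 11.3, 10.5, 11.7 and 13.2 RPKM in isotype libraries. Isotype library 6 lay below all antibody libraries and the other 4 isotype libraries above them. The log2 fold change was -0.29 (standard error 0.17, limma adjusted p = 0.783), -0.45 without isotype library 6 (limma adjusted p = 0.135) and -0.20 without isotype library 10 (limma adjusted p = 0.966). Slc7a3 was less abundant per length, with 0.908, 0.920, 0.912, 1.23 and 0.750 RPKM in antibody libraries, against 0.795, 1.20, 1.86, 1.28 and 3.11 RPKM in isotype libraries (log2 fold change -0.49, standard error 0.24, limma adjusted p = 0.744). Isotype libraries 6 and 7 lay inside the antibody range and isotype library 10 was the highest of all. Without isotype library 10 its log2 fold change was -0.28 (limma adjusted p = 0.951).

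Slc7a14 had the second highest mean of the 34 genes. It stood at 81.7, 60.9, 61.2, 66.1 and 72.5 RPKM in antibody libraries, against 49.1, 67.5, 56.2, 68.9 and 78.1 RPKM in isotype libraries, with antibody library 1 the highest and isotype library 6 the lowest. The log2 fold change of 0.11 had a 95% interval of -0.20 to 0.41 (limma adjusted p = 0.913). Slc7a4 averaged 5.84 ± 1.66 RPKM under the antibody and 6.88 ± 1.31 RPKM under the isotype control (SD over 5 libraries in each group; log2 fold change -0.25, limma adjusted p = 0.863). Antibody library 5, at 2.91 RPKM, was far below the other libraries, and without it the log2 fold change of Slc7a4 was -0.04 (limma adjusted p = 0.956).

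All 4 tested carriers of the SLC6 family, which use sodium and chloride, had negative log2 fold changes, and 0 of the 4 passed. Slc6a9 encodes the glycine carrier GLYT1 and had the most negative value of the set. It stood at 1.82, 2.44, 2.35, 3.17 and 2.66 RPKM in antibody libraries 1 to 5, against 1.83, 4.29, 4.98, 4.86 and 8.53 RPKM in isotype libraries 6 to 10. Isotype libraries 7 to 10 lay above every antibody library, and isotype library 6 lay next to the lowest of them. The mean was 2.49 ± 0.490 RPKM under the antibody and 4.90 ± 2.40 RPKM under the isotype control (SD over 5 libraries in each group), a log2 fold change of -0.74 (SE 0.29, 95% interval -1.37 to -0.12, limma adjusted p = 0.603, exact permutation p = 0.0476). It was -1.01 without isotype library 6 (limma adjusted p = 0.0714) and -0.53 without isotype library 10 (limma adjusted p = 0.885).

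Slc6a17, a vesicular carrier of neutral amino acids in neurons, stood at 14.1, 13.1, 13.6, 9.57 and 9.52 RPKM in antibody libraries, against 12.0, 16.9, 13.0, 16.6 and 17.6 RPKM in isotype libraries. Antibody libraries 4 and 5 lay below every isotype library, while the rest overlapped (log2 fold change -0.34, SE 0.15, 95% interval -0.67 to -0.002, limma adjusted p = 0.709, exact permutation p = 0.0794). Slc6a19, the neutral amino acid carrier B0AT1 known from kidney and intestine, was also present in islets. It stood at 4.94, 2.30, 2.14, 6.25 and 3.91 RPKM in antibody libraries, against 6.49, 4.60, 3.09, 6.05 and 6.85 RPKM in isotype libraries (log2 fold change -0.47, standard error 0.28, limma adjusted p = 0.798). The lowest Slc6a19 values with the antibody were those of libraries 2 and 3, which had the lowest Slc7a2 levels among the antibody libraries as well.

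Slc6a6, the taurine carrier TauT, stood at 52.5, 51.6, 49.4, 56.1 and 67.7 RPKM in antibody libraries and 63.7, 57.6, 52.6, 67.7 and 57.1 RPKM in isotype libraries (log2 fold change -0.11, 95% interval -0.36 to 0.14, limma adjusted p = 0.888). Slc6a14, Slc6a15, Slc6a20a and Slc6a20b had means below 0.5 RPKM and were not tested. Slc6a20a and Slc6a20b are neighbouring copies on chromosome 9, and how reads shared between them were assigned is not given, so their values as single genes are uncertain.

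**Figure D3:**
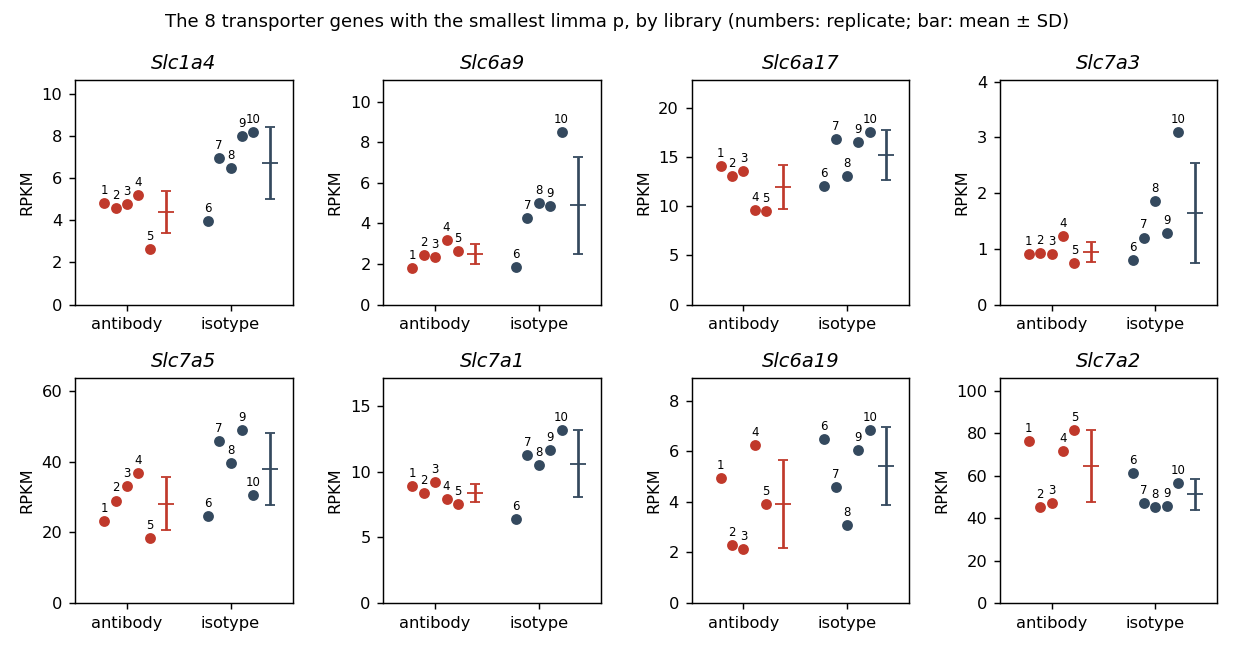
RPKM of the 8 transporter genes with the smallest limma p, in antibody libraries (red, left in each panel) and isotype libraries (dark blue, right), with the replicate number at each point and the mean ± SD of 5 libraries beside them. Isotype library 6 lies among or below the antibody libraries in Slc1a4, Slc6a9, Slc6a17, Slc7a3, Slc7a5 and Slc7a1.

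The aromatic amino acid carrier TAT1, encoded by Slc16a10, had nearly equal levels in both groups. It stood at 61.3, 50.5, 53.2, 64.0 and 52.5 RPKM in antibody libraries, against 54.0, 53.3, 52.1, 62.2 and 61.5 RPKM in isotype libraries. The log2 fold change was -0.01 with a 95% interval of -0.24 to 0.22 (limma adjusted p = 0.993), so the interval excluded a change of 1.5-fold in either direction. Slc43a2 (LAT4), a facilitator of large neutral amino acids, averaged 32.6 ± 6.29 RPKM under the antibody and 30.02 ± 5.87 RPKM under the isotype control (SD over 5 libraries in each group; log2 fold change 0.12, limma adjusted p = 0.924). The SLC36 family members Slc36a1 (PAT1) and Slc36a4 (PAT4) had log2 fold changes of -0.085 and -0.09. Pqlc2, the lysosomal exporter of cationic amino acids, averaged 2.57 ± 0.478 RPKM under the antibody and 2.71 ± 0.358 RPKM under the isotype control (SD over 5 libraries in each group; log2 fold change -0.07, limma adjusted p = 0.951).

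The 11 genes below 0.5 RPKM included all 3 high-affinity glutamate carriers of the set, Slc1a1 (EAAC1), Slc1a2 (GLT-1) and Slc1a3 (GLAST). Slc1a1 stood at 0.399, 0.346, 0.458, 0.313 and 0.119 RPKM in antibody libraries, against 0.127, 0.283, 0.164, 0.253 and 0.210 RPKM in isotype libraries. The first 4 antibody libraries lay above every isotype library and the fifth below them (exact permutation p = 0.111). Without a filter on low values the limma adjusted p of Slc1a1 was 0.788. Slc1a2 reached at most 0.102 RPKM under the antibody and 0.0631 RPKM under the isotype control, and Slc1a3 at most 0.236 RPKM under the antibody and 0.168 RPKM under the isotype control. Also in this class were Slc36a2 and Slc43a1, besides the SLC6 genes, Slc7a9 and Slc7a10 named above.

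Some libraries held an extreme position in many of the genes. Among the isotype libraries, library 6 was the lowest in 15 of 23 tested transporters (65.2%), against 34.7% of all tested genes, and library 10 was the highest in 12 of 23 (52.2%), against 39.1%. Isotype library 10 was the highest of all 10 libraries in 11 of 23, a count for which the share of all tested genes was not computed. In the antibody group, library 5 was the lowest in 8 of 23 (34.8%, against 35.8% of all tested genes). In 8 of the 23 genes (34.8%), all 5 antibody libraries lay below the isotype median, as they did in 13.3% of all tested genes. In 2 of the 23 (8.70%), Slc3a1 and Slc7a7, all 5 lay above it, against 5.19% of all tested genes. The 8 genes were Slc3a2, Slc7a8, Slc7a5, Slc6a17, Slc7a1, Slc1a4, Slc6a9 and Slc7a3. Without isotype library 6, 7 of the 23 had an unadjusted limma p below 0.05 with a negative log2 fold change, against 6% of all genes tested in that setting. Without isotype library 10 the number was 0, against 3.07%. In both settings 0 passed after adjustment. Leaving out 1 library moved the log2 fold change by over 1.5 times in 18 of the 23 genes, the exceptions being Slc1a4, Slc6a9, Slc6a17, Slc7a5 and Slc7a2. This measure is a ratio, so genes near 0 pass it with small moves. Slc36a1, for example, was at -0.085 in the main fit and at -0.042 without antibody library 2. The share of all tested genes moved in this way was not computed.

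**Figure D4:**
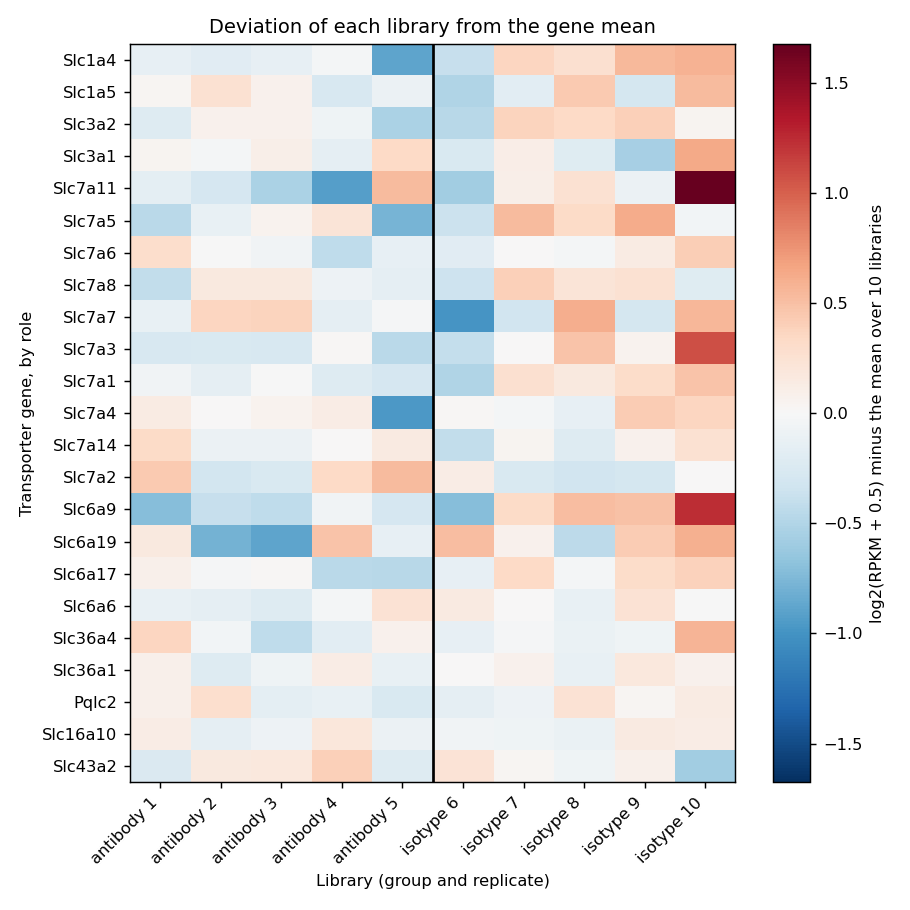
Deviation of log2(RPKM + 0.5) in each library from the mean of the gene over 10 libraries, for the 23 tested transporters in rows ordered by role, with antibody libraries left of the black line and isotype libraries right of it. Most genes are blue in the column of isotype library 6, and the deepest red is Slc7a11 in isotype library 10.

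Single exocrine genes shared their lowest and highest isotype library with some transporters, but the acinar list as a whole did not. The mean level of the 18 acinar genes, on the log2(RPKM + 0.5) scale, lay between 5.72 and 7.31 in antibody libraries and was 7.02, 7.17, 7.57, 5.33 and 7.16 in isotype libraries 6 to 10. Among the isotype libraries, 13 of the 18 were highest in library 8 and 5 in library 10, while 15 were lowest in library 9 and 3 in library 6. Krt19, a keratin of duct cells, was at 11.5 to 42.8 RPKM in antibody libraries and at 24.5, 65.2, 90.9, 56.2 and 108 RPKM in isotype libraries 6 to 10. Ptf1a, an acinar transcription factor, was at 0.269 to 0.751 RPKM in antibody libraries and at 0.992, 2.35, 1.97, 3.07 and 7.32 RPKM in isotype libraries 6 to 10. Like Slc6a9, Slc1a4 and Slc7a3, Krt19 and Ptf1a, chosen after their values were seen, were lowest in library 6 and highest in library 10 among the isotype libraries. So were Slc1a5, Slc7a6, Slc7a11, Slc7a1, Slc7a14, Slc6a17 and Slc36a4, of which Slc7a14 had a positive log2 fold change. Ptf1a and Slc1a4 also shared the order of the isotype libraries in between, whereas Krt19 and Slc1a4 did not. The part of Krt19 and Ptf1a in the transporter values was not tested. As a whole, the 8 ductal genes averaged 2.77 to 3.36 on the log2(RPKM + 0.5) scale with the antibody and 2.76 to 3.49 with the isotype control, again lowest in isotype library 6 and highest in isotype library 10. They summed to 248 to 301 RPKM under the antibody and 283 to 325 RPKM under the isotype control. In the ductal list the channel gene Cftr was at 0.0699 to 0.122 RPKM in antibody libraries and 0 to 0.247 RPKM in isotype libraries. Krt7 was between 144 and 222 RPKM in antibody libraries and between 140 and 221 RPKM in isotype libraries, lowest in isotype library 10. Tspan8, also named with its values known, was at 30.6 to 48.7 RPKM in antibody libraries and 19.9 to 27.5 RPKM in isotype libraries. It was thus higher with the antibody while Krt19 tended lower, so the ductal level mixes genes that differ in opposite directions. The 12 beta cell genes averaged 8.45 to 9.08 on that scale with the antibody and 8.82 to 9.20 with the isotype control.

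Each of the 23 tested transporters was compared across the 10 libraries with the ductal and the acinar level, which made 46 relations, and none passed after adjustment. The strongest was that of Slc7a11 with the ductal level, with a Pearson r of 0.77 (permutation p = 0.00347, adjusted p = 0.160) and a Spearman rho of 0.87 (permutation p = 0.00237, adjusted p = 0.109), and r was 0.88 without antibody library 1 and isotype library 6. Slc6a9 followed, with r of 0.75 (permutation p = 0.0136, adjusted p = 0.312) and rho of 0.79 (permutation p = 0.0087, adjusted p = 0.2001), and r was 0.57 without the same libraries. For the acinar level the libraries fell into 4 with low and 6 with high values, a split read from these same values. Relations were therefore also taken within the 6 only, and none passed there. That permutation test ran over all orders of the 6 libraries, with 1 added to the number of orders and to the number at least as extreme. With p-values computed in this way no single relation could pass after adjustment over the 23 genes, so this does not decide whether such relations exist. With the ductal level as a covariate the log2 fold change of Slc7a11 was -0.19 (limma adjusted p = 0.837) and that of Slc6a9 -0.49 (limma adjusted p = 0.490), against -0.54 and -0.74 without it. That of Slc7a1 was -0.18 with the covariate and -0.29 without it. Other genes moved away from 0 with the ductal covariate. Among them were Slc6a19 (-0.63, against -0.47 without it), Slc7a4 (-0.36, against -0.25) and Slc7a7 (0.44, against 0.18).

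Carriers outside the set gave a point of comparison. Of 11 genes of the SLC38 family 9 were tested, and 1 passed, Slc38a5, at 35.9 to 84.5 RPKM in antibody libraries and 1.403 to 4.88 RPKM in isotype libraries (log2 fold change 3.91, standard error 0.27, limma adjusted p = 9.89e-05). In the same family Slc38a3 had the next smallest p, with a log2 fold change of -1.07 (limma adjusted p = 0.4998) and, as in Slc6a9 and Slc7a11, its highest value in isotype library 10 (6.48 RPKM). Slc38a5 and the transporters described here were measured in the same libraries, and the largest absolute log2 fold change among the 23 was 0.74. Of 9 mitochondrial amino acid carriers 7 were tested and 0 passed, with a median log2 fold change of -0.20. Among them the aspartate-glutamate carrier Slc25a13 was at -0.28 (limma adjusted p = 0.716) and the basic amino acid carrier Slc25a29 at -0.42 (limma adjusted p = 0.771). Of 22 genes in a list of other carriers, not all of them for amino acids, 5 were tested and 0 passed. The 5 included the lysosomal histidine and peptide carrier Slc15a4 at -0.21 and the cystine exporter Ctns at -0.12. Over these lists 1 unadjusted limma p below 0.05 besides that of Slc38a5 was found, that of Slc38a3.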

How the data were processed

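The deposited table holds RPKM values for 24475 genes, which the authors computed per library, and all 10 library columns were used. Per the submitters' processing notes the builds GRCm38 and mm10 and CASAVA 1.8.2 and FastQC were named. The aligner, the counter and the annotation: not given in the sources used here. Libraries were prepared with a kit that does not mark strand, per the labels' protocols. Values were taken as log2(RPKM + 0.5) without further scaling, and the 13450 genes that averaged 0.5 RPKM or more were tested. The antibody and isotype libraries entered limma 3.58.1 (R 4.3.3, variance trend, no covariate), and p-values were adjusted over all tested genes by Benjamini and Hochberg, with 0.05 as threshold. Intervals are limma's at 95%. Single genes were also compared by a two-sided exact permutation test over 252 assignments, whose smallest p is 0.00794. Correlations over 10 libraries used 100000 permutations, and all p-values of a family were adjusted together. Depth was estimated from the steps of low values in 15621 genes with a single transcript length in GENCODE M21, where 69.9% to 75.8% of low values fell within 0.1 of whole reads. The step was fitted to these values, so counts were not recovered and no count model was used. Promoter sequences and gene coordinates are RefSeq's on GRCm38.p6, and all 34 genes were matched by gene ID. The limma and permutation steps were tested on simulated data. Other steps ran in Python 3.11.15 with matplotlib 3.10.9, pandas 2.3.3, numpy 2.4.6 and scipy 1.17.1.

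The genes and lists were chosen with earlier results of these data known. Described in full were genes past the threshold, the 8 with the smallest limma p, the 6 with the highest mean, both heavy chains and Slc7a2, and from the other carrier lists the 2 genes with the smallest p. Alternatives left out each library in turn, took the acinar or the ductal level as covariate, weighted the libraries, made the variance robust or dropped its trend, scaled by trimmed means, quantiles or medians, required 5 RPKM on average or nothing, and added 0.1 or 1 before the logarithm.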

Additional observations from a re-analysis of the deposited data

Results flagged for a closer look

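Among the 46 groups of 5 values examined (23 transporters in each group of libraries), 3 held a library whose gap to its nearest neighbour was more than 0.71 of the whole range of the group on the log2(RPKM + 0.5) scale. Chance alone sets about 1 group in 20 apart in this way. Antibody library 5 stood below the others in Slc1a4, at 2.64 RPKM with a gap of 0.807 of the range, and in Slc7a4, at 2.91 RPKM with a gap of 0.877. Isotype library 10 stood above the others in Slc36a4, at 13.0 RPKM with a gap of 0.826. Without antibody library 5 the log2 fold change of Slc1a4 was -0.40 (limma adjusted p = 0.626), and without isotype library 10 that of Slc36a4 was 0.04 (limma adjusted p = 0.994).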

How the results depend on the processing

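In none of the 23 alternatives did any tested transporter pass in limma, in either direction, and the smallest adjusted p was 0.0714, for Slc6a9 without isotype replicate 6. Of 521 log2 fold changes recomputed for the 23 genes, 493 kept their direction, and 16 genes kept it throughout. Slc1a5, near 0 in the main analysis, turned positive with a pseudocount of 0.1 (0.0032), median centring (0.074), quantile normalization (0.044), trimmed mean scaling (0.050), array weights (0.123), the acinar (0.042) or ductal covariate (0.156), and without isotype replicates 6 and 10 together (0.0072), which was added after seeing the data. Slc16a10 did so with median centring (0.067), quantile normalization (0.055), trimmed mean scaling (0.049) and without those replicates together (0.0096), Slc36a4 in the last setting (0.022), and Pqlc2 with median centring (0.0084). With 1 library left out, the log2 fold change ran from -0.128 to 0.130 for Slc1a5, -0.0147 to 0.285 for Slc3a1, -0.0464 to 0.353 for Slc7a7, -0.191 to 0.0399 for Slc36a4, -0.0093 to 0.195 for Slc43a2 and -0.0571 to 0.0274 for Slc16a10. The number of all genes called was 55, with 23 at a minimum mean of 5 RPKM, 182 with array weights, 26 without isotype replicates 6 and 10 together, and 32 (without isotype replicate 9) to 60 with 1 library left out. The cause was not tested. No paired analysis was possible because the groups share no replicate numbers. The width of the intervals, of which 10 of 23 exclude a 1.5-fold change, reflects the spread among 5 libraries in each group.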
